A study of Homo sapiens with 6 samples.

Results

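The genes described here are 8 that encode proteins known to help or block back-splicing, *DHX9*, *ADAR*, *ADARB1*, *QKI*, *MBNL1*, *MBNL2*, *ILF2* and *KHSRP*. They were named for this role, with earlier results of these data known. All 8 were found by symbol among the 60651 genes counted in SK-N-AS neuroblastoma cells, and all 8 were among the 29086 genes tested.

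Circular RNAs (circRNAs) arise when the end of an exon is joined to the start of an exon that lies before it, a reaction called back-splicing, which competes with the linear splicing of the same transcript. Introns that fold back on each other through inverted repeats, such as Alu elements, bring the ends together, and proteins that bind both flanking introns can do the same. DHX9, an RNA helicase, and the adenosine deaminases ADAR and ADARB1 act on such double-stranded RNA and lower circRNA formation, whereas QKI and the muscleblind proteins MBNL1 and MBNL2 bind the flanking introns, ILF2 is a subunit of complexes that bind double-stranded RNA, and KHSRP is a KH-domain protein of splicing and mRNA decay.

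SK-N-AS is a long-established line of human neuroblastoma cells without amplification of *MYCN*, the transcription factor gene that drives many high-risk neuroblastomas. The cells carried a *MYCN* transgene under control of the tetracycline repressor (TR) and were kept as single clones under G418 and blasticidin, which holds for both groups. The 3 control libraries, labelled ETOH (ethanol), came from cells of this line under a control treatment without tetracycline. The 3 MYCN-induced libraries, labelled Tet, came from cells given tetracycline. The titles give 120 h and the treatment note 5 days. The study asked whether MYCN acts on circRNAs through such regulators, and the comparison here is of the genes' RNA in the induced and the control cells. Cells that received tetracycline without the transgene were not analysed here, so an effect of MYCN and one of tetracycline cannot be told apart.

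Total counts lay between 64500589 and 102249336 per library. *MYCN*, at 30.3, 35.5 and 32.4 CPM (counts scaled to the size of the library) in the controls and 211, 221 and 199 CPM in the induced libraries, was 2.68 higher on the log2 scale, with a standard error (SE) of 0.08 and an adjusted p of 4.15e-05 (quasi-likelihood test of edgeR, adjusted after Benjamini and Hochberg over all genes). MYCN-induced replicate 3 stood apart from the rest, at 75.2 on a first principal component (44.4% of the variance) on which the other induced libraries were at 15.1 and 12.8 and the controls between -42.3 and -28.1. The label of the line was checked against markers. All 10 sympathoadrenal markers were detected, with summed levels from 1058 to 1417 CPM in the controls and from 980 to 1170 CPM in the induced libraries, although *TH*, the rate-limiting enzyme of catecholamine synthesis, was between 0.665 and 1.58 CPM in every library. Of these markers edgeR called 0 higher and 2 lower in induced cells, where it called 1.02% of all tested genes as higher and 2.38% as lower. Among the 2 was *CHGA*, a granin (log2 fold change -1.21, adjusted p = 0.0492 from edgeR), and DESeq2 called 4 of the 10, all as lower, where it called 7.23% of all genes. Summed levels of 10 mesenchymal markers were 609 to 622 CPM in the controls and 677 to 739 CPM in the induced libraries, and 7 of the 10 had a log2 fold change above 0 (median 0.24). By edgeR 0 of them were higher and 1 lower, *FN1*, the matrix protein fibronectin (-0.71, adjusted p = 0.0330), while 4 of the 6 with an unadjusted p under 0.05 were above 0. DESeq2 called *FN1* lower, and *FOSL1*, an AP-1 subunit (1.19, adjusted p = 0.00333), and *VIM*, the filament protein vimentin (0.31, adjusted p = 0.00840), higher. Without MYCN-induced replicate 3 edgeR called 5, *FN1* lower and *FOSL1*, *VIM*, *PRRX1* and *YAP1* higher, where it called 8.12% of all genes. With 1 library left out the adjusted p was as high as 0.168 for *FN1* (without control replicate 2) and 0.158 for *CHGA* (without control replicate 3). The 6 leukocyte markers summed to at most 7.21 CPM and the 4 endothelial markers to at most 1.49 CPM in any library, *CD3E* had no count, and neither list had a gene past the threshold by edgeR or DESeq2 (1 of their 4 tested genes, *CDH5*, had an unadjusted p under 0.05). The part of these marker changes in the results below was not tested.

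MYC proteins bind the E-box, whose core is CACGTG, and variants such as CACGCG, so the promoters of the regulators were searched for both on both strands (CACGTG reads the same on either strand, and CACGCG reads CGCGTG on the other). RefSeq windows of 250 bases before to 50 after a start (build GRCh38.p14) were at hand for 7 of the 8 genes, 15 windows in all, since several have more than 1 start. *QKI* is named only. CACGTG occurred in 3 of the 15 windows, those of the 2 neighbouring *ADAR* starts and of 1 *MBNL1* start, against 7.26% of all 35116 windows. CACGCG occurred in 3 windows, 1 each of *DHX9*, *ADARB1* and *MBNL1*, against 11.4% of all. A match is a description of these letters and not evidence of binding. Binding was not measured here. From published chromatin immunoprecipitation of MYCN in other neuroblastoma lines, the study reports a strong signal at the *DHX9* promoter. It was seen only in lines with amplified *MYCN*, and SK-N-AS was not among the lines examined. The windows that hold a match are shown 5′ to 3′ along the gene, with the match in capitals. Of the 2 overlapping *ADAR* windows, which share 1 match, only 1 is shown.
DHX9, chr1:182839097-182839396, plus strand, CACGCG from base 194 of the window: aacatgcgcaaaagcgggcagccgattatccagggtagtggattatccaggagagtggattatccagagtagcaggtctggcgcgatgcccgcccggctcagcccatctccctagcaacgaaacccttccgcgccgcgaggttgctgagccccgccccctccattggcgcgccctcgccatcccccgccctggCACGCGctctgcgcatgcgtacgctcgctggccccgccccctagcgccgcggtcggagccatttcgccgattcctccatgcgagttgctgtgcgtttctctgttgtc
ADAR, chr1:154627948-154628247, minus strand, CACGTG from base 217: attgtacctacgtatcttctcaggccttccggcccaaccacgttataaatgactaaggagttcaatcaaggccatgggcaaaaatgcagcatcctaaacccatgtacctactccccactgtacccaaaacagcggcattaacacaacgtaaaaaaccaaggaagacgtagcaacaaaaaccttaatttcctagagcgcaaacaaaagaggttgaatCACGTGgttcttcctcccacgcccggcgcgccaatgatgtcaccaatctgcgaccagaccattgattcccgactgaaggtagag
ADARB1, chr21:45074801-45075100, plus strand, CGCGTG from base 261: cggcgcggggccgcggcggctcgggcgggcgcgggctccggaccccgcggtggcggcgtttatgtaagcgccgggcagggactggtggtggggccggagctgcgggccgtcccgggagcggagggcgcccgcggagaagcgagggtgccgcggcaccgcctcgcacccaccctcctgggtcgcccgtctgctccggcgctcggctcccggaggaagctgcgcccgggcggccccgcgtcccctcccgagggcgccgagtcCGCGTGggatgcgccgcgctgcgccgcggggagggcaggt
MBNL1, chr3:152268679-152268978, plus strand, CGCGTG from base 123: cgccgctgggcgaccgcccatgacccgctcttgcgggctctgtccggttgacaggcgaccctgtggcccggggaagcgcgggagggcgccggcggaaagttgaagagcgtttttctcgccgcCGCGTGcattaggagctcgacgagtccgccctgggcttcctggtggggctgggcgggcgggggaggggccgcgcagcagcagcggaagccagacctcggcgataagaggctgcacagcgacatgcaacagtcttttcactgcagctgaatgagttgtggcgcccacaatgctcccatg
MBNL1, chr3:152298764-152299063, plus strand, CACGTG from base 40: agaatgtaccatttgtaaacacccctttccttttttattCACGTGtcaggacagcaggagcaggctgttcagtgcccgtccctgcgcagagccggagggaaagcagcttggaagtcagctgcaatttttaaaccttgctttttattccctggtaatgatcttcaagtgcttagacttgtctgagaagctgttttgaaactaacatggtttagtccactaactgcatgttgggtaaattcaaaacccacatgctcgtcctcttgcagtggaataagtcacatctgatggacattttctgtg
The *DHX9* match begins 57 bases before the start and the *ADAR* match 34 bases before the start shown and 60 bases before the other. In *ADARB1* the match begins 10 bases after the start, while those of *MBNL1* lie further out, 128 and 211 bases before its respective starts. No window of *ILF2*, *KHSRP* or *MBNL2* held either run of letters.

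The regulators spanned a wide range of abundance, compared here as TPM, which divides counts by exon length before scaling to the library total. *ILF2* was the most abundant, at 254 ± 22.5 TPM in control cells (SD, n = 3) and 260 ± 51.9 TPM in induced cells (SD, n = 3), above 99.5% of the 18050 protein-coding genes with any count. *DHX9* followed at 139 ± 13.9 and 136 ± 26.9 TPM (SD, n = 3 each). *ADAR*, at 64.3 ± 6.76 and 64.9 ± 7.43 TPM, and *KHSRP*, at 57.8 ± 11.0 and 69.8 ± 20.7 TPM (SD, n = 3 each), overlapped in their ranges, with *ADAR* the higher of the pair in 4 of 6 libraries. Lower still were *MBNL1*, at 17.7, 16.0 and 14.7 TPM in the controls and 20.3 ± 4.50 TPM in induced cells, and *MBNL2*, at 13.6 ± 0.865 and 15.9 ± 3.33 TPM (SD, n = 3 each). Their ranges also overlapped, with *MBNL1* above in 5 of 6 libraries. *QKI* stood at 8.99 ± 0.892 and 9.98 ± 1.93 TPM, and *ADARB1* was the least abundant at 6.45 ± 0.613 and 5.09 ± 0.450 TPM (SD, n = 3 each). The ranges of the other neighbours in this order did not overlap over the 6 libraries. Thus *ADAR* RNA outnumbered *ADARB1* RNA 9.97-fold per exon base in control cells, and *MBNL1* RNA outnumbered *MBNL2* RNA 1.18-fold (geometric means of the 3 libraries). Exon length here is that of all annotated exons of a gene, whichever transcripts the cells use, so order and ratios between genes depend on it. By CPM, which leave length out, *DHX9* was above *ILF2* in control cells, with means of 498 and 349 CPM.

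**Figure D1:**
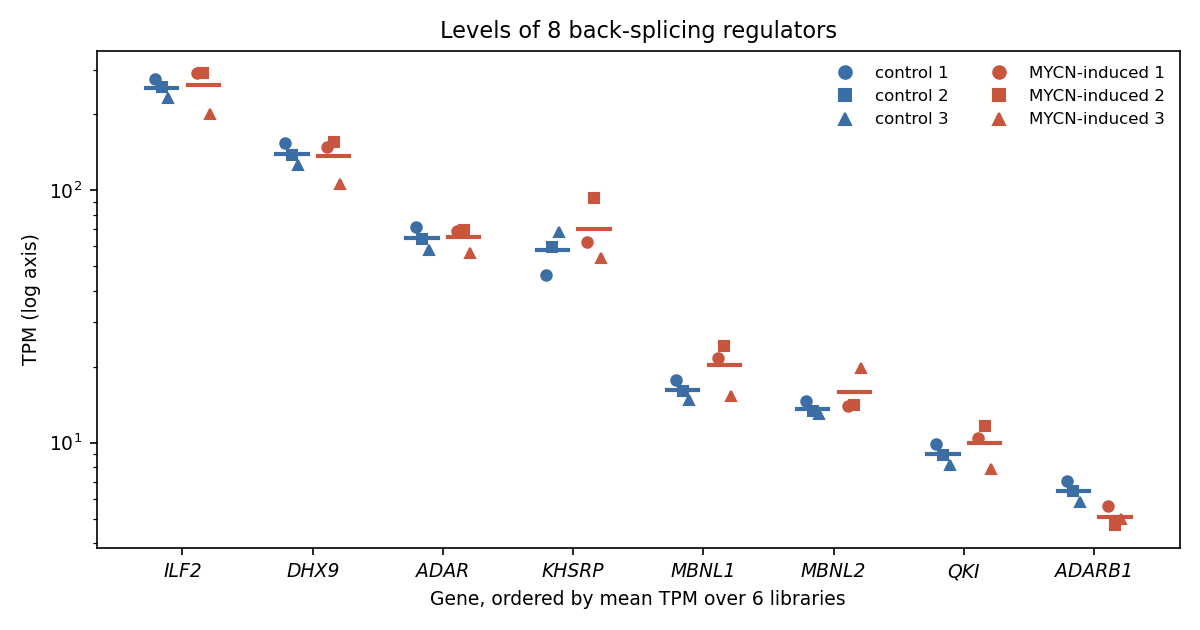
TPM (log axis) of the 8 regulators in 3 control (blue) and 3 MYCN-induced libraries (red), ordered by mean TPM. Points are libraries, with the replicate number by shape, and bars are group means. *ILF2* lies above all others, between 200 and 290 TPM, while *ADAR* with *KHSRP* and *MBNL1* with *MBNL2* overlap.

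Between control and induced cells none of the 8 regulators passed an adjusted p of 0.05 in edgeR's test, where 3.40% of all tested genes did, 1.02% as higher and 2.38% as lower. At an unadjusted p under 0.05 there were 2, *MBNL1* higher and *ADARB1* lower, against 18.7% of all genes. In these same genes the 3 control values did not overlap the 3 induced values, 25.0% of the regulators against 26.3% of all tested genes (11.5% higher and 14.7% lower in induced cells). DESeq2 called 1, *MBNL1*, as higher, where it called 7.23% of all genes and 3.11% as higher. Without MYCN-induced replicate 3, edgeR also called *MBNL1* alone, where it called 8.12% of all genes and 3.68% as higher. The median log2 fold change of the 8 was 0.08, against 0.00 for all tested genes, with 6 above 0 and 2 below. All 5 genes of proteins that help back-splicing were above 0 (median 0.24, the value of *KHSRP*), as were 14524 of all 29086 tested genes. *ILF2*, and *ADAR* among the others, were below 0 when counts were scaled by library size only or by upper quartile. Both were also below 0 without control replicate 3 and without MYCN-induced replicate 1. *MBNL2* was at -0.05 without MYCN-induced replicate 3, and *KHSRP* at 0.07 without control replicate 1. The 3 genes of proteins that block back-splicing had a median of -0.04, the value of *DHX9*, which was at 0.04 without MYCN-induced replicate 3. A difference between these groups of genes was not tested. The groups are small and most single values were within their error. CPM are shares of all counted RNA in a bulk culture, so fewer cells with a given RNA and less of it per cell cannot be told apart, and reads of circular and linear transcripts of a gene are counted together.

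**Figure D2:**
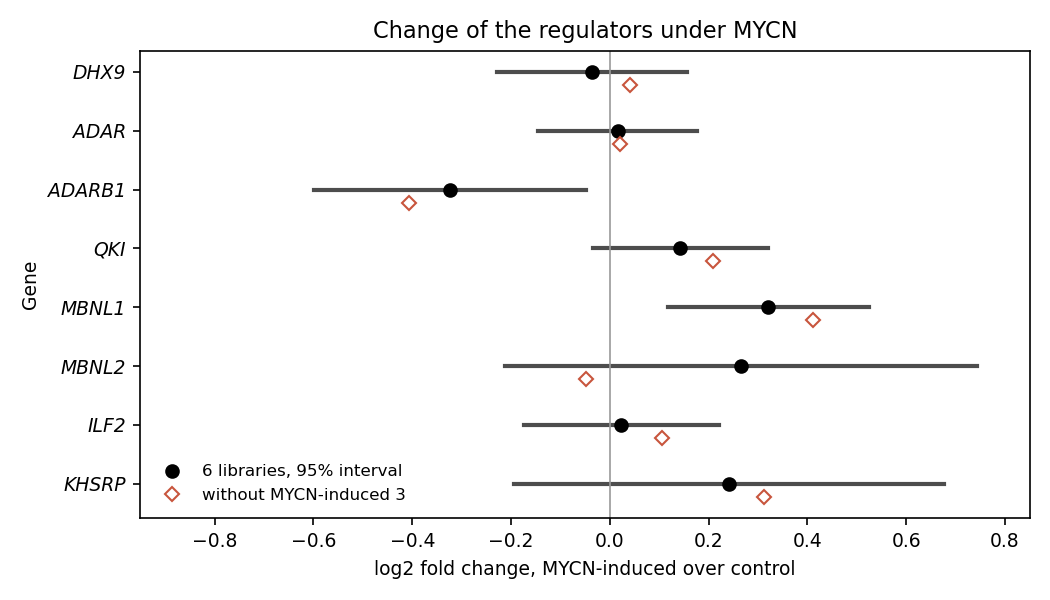
Log2 fold change (MYCN-induced over control) of each regulator from edgeR over 6 libraries (black points, bars are 95% intervals) and without MYCN-induced replicate 3 (open diamonds). The intervals of *ADARB1* and *MBNL1* lie to either side of 0, the other 6 include 0, and the diamonds of *DHX9* and *MBNL2* are on the other side of 0 from their points.

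*DHX9* (ENSG00000135829.17, chr1:182839347-182887982 on GRCh38, plus strand, 5898 exon bases) unwinds double-stranded RNA, including paired Alu elements, and its loss is known to raise circRNAs. Its level was 522, 499 and 472 CPM in control replicates 1, 2 and 3 and 521, 498 and 438 CPM in the induced ones. The groups overlapped, and the lowest value was that of MYCN-induced replicate 3. The log2 fold change was -0.04 (SE 0.08, 95% interval -0.23 to 0.16, adjusted p = 0.867 from edgeR), so that the interval allowed a fold from 0.854 to 1.11. Without MYCN-induced replicate 3 it was 0.04 (adjusted p = 0.689 from edgeR). These values are of RNA, whereas the study reports higher DHX9 protein by western blot in SK-N-AS cells once MYCN was induced. For RNA, the study reports more *DHX9* in tumours with *MYCN* amplification than in those without, in its own and a published cohort. Those samples are tumours and not this cell line. Protein was not measured here. Reads are hardly shared with other loci. The antisense gene *DHX9-AS1*, which covers 110 of its exon bases, had 1237 to 2154.5 counts per library against 33802 to 54611.5 for *DHX9*, and the pseudogene *DHX9P1* at most 10 counts.

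The pattern of *DHX9* over the 6 libraries was compared with that of 9251 other protein-coding genes with a mean of at least 10 CPM. Among the 5 most alike were *TUBA1B* (an alpha-tubulin), *FZD3* (a Wnt receptor), *NUP155* (a nuclear pore protein) and *EML1* (a microtubule-associated protein). Their Pearson correlations with *DHX9* on log2 CPM lay between 0.987 and 0.995 across 6 libraries that share their depth and scaling. *TUBA1B* was at 528, 492 and 445 CPM in the controls and 540, 480 and 378 CPM in the induced libraries, so replicate 1 of each group was high and MYCN-induced replicate 3 low, as for *DHX9*. Log2 fold changes of these 4 ran from -0.07 to -0.01, with adjusted p-values from 0.831 to 0.969 (edgeR). As the genes were picked by their pattern over these same libraries, this likeness to *DHX9* is no separate result. Among the regulators themselves *ILF2* was the most like *DHX9* (0.924), and *QKI* with *MBNL1* was the closest pair (0.958).

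*ADAR* (ENSG00000160710.18, chr1:154581695-154628013, minus strand, 12242 exon bases) edits adenosine to inosine in double-stranded RNA, which weakens the pairing of inverted repeats. It was at 504, 479 and 452 CPM in the controls and 502, 464 and 486 CPM in the induced libraries. The groups overlapped throughout, with a log2 fold change of 0.02 (SE 0.07, 95% interval -0.14 to 0.18, adjusted p = 0.935 from edgeR), the narrowest interval of the 8. The counts sum the long interferon-inducible and the shorter constitutive form of the protein's transcripts.

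*ADARB1* (ENSG00000197381.16, chr21:45073853-45226560, plus strand, 10049 exon bases), the second catalytically active deaminase, known for editing glutamate receptor transcripts in neurons, had 41.0, 39.7 and 37.5 CPM in the controls. The induced libraries had 33.4, 25.8 and 35.2 CPM, all below the controls, with replicate 2 the lowest. A log2 fold change of -0.32 (SE 0.12, 95% interval -0.60 to -0.05) did not pass the threshold (adjusted p = 0.198, unadjusted p = 0.0265, edgeR). Without MYCN-induced replicate 2 it was -0.20 (adjusted p = 0.263), without replicate 3 -0.41 (adjusted p = 0.0700, edgeR).

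Ratios within a library do not depend on scaling between libraries. The log2 ratio of *ADAR* to *ADARB1* counts per exon base was 3.34, 3.31 and 3.31 in the controls, which lay close together, and 3.63, 3.88 and 3.50 in the induced libraries. The difference of 0.35 had an exact permutation p of 0.1 (two-sided, 0.3 adjusted over 3 ratios, of which 2 are given here), the smallest that 3 libraries against 3 can give. *ADAR* thus exceeded *ADARB1* 12.7-fold in induced cells, against 9.97-fold in the controls, higher in 3 of 3 induced libraries.

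**Figure D3:**
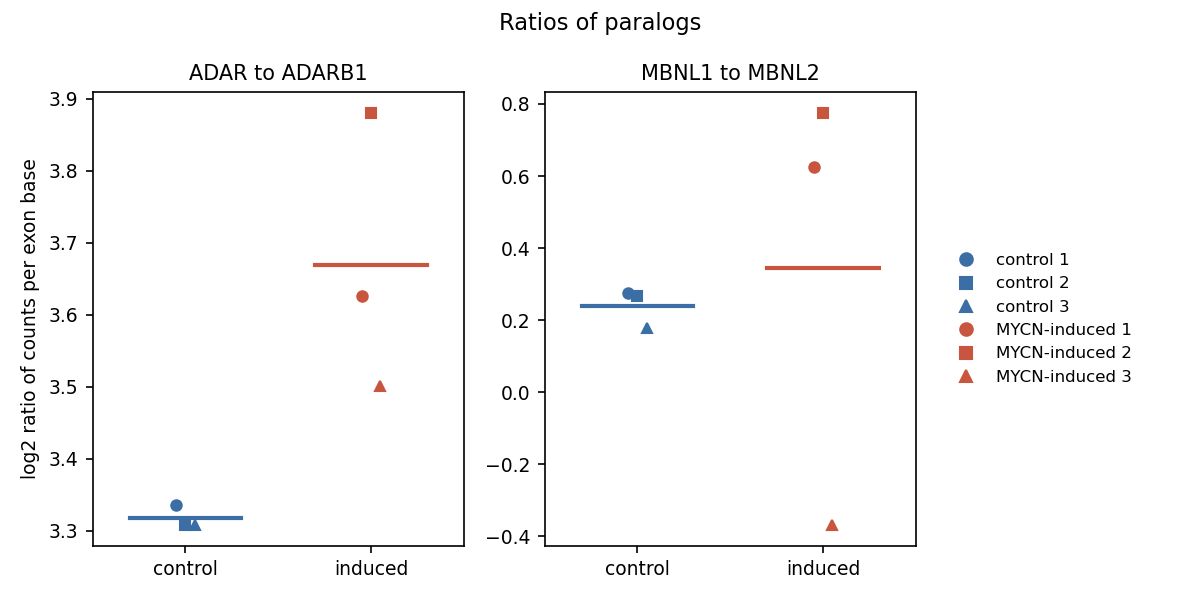
Log2 ratio of counts per exon base within each library for *ADAR* to *ADARB1* and *MBNL1* to *MBNL2*, in control (blue) and MYCN-induced (red) libraries. Points are libraries and bars are means. The groups are apart for *ADAR* to *ADARB1*, and MYCN-induced replicate 3 is lowest for *MBNL1* to *MBNL2*, at -0.37.

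*QKI* (ENSG00000112531.17, chr6:163414000-163578592, plus strand, 17364 exon bases), a STAR-family protein known to raise circRNAs during epithelial-mesenchymal transition, was at 99.5, 94.7 and 90.3 CPM in the controls. In the induced libraries it was at 108, 110 and 96.2 CPM, of which the third fell within the control range. Its log2 difference was 0.14 (SE 0.08, 95% interval -0.03 to 0.32, adjusted p = 0.374 from edgeR), and 0.21 without MYCN-induced replicate 3 (adjusted p = 0.0590).

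*MBNL1* (ENSG00000152601.17, chr3:152243828-152465780, plus strand, 9989 exon bases) is a splicing factor whose own gene forms a circRNA to which the protein binds. It was at 102, 97.9 and 93.9 CPM in the controls and at 128, 131 and 108 CPM in the induced libraries. All induced values were above all control values, and replicate 3 was the nearest to them. The log2 fold change was 0.32 (SE 0.09, 95% interval 0.12 to 0.52), at an adjusted p of 0.1002 and an unadjusted p of 0.00673 from edgeR. DESeq2 gave 0.34 (adjusted p = 0.0426), and edgeR without MYCN-induced replicate 3 gave 0.41 (adjusted p = 0.00685). The call thus rested on the tool and on that library, over a range of adjusted p from 0.00685 to 0.3500 over all alternatives. The antisense gene *MBNL1-AS1* covers 1142 of its exon bases (11.4%), but had only 446.5 to 688 counts per library, against 8312.5 to 12219 for *MBNL1*. As the header of the counts sets no strand option, reads of the pair cannot be told apart there.

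*MBNL2* (ENSG00000139793.19, chr13:97221434-97394120, plus strand, 4908 exon bases), the muscleblind protein best known from the brain, was at 41.4, 40.0 and 40.7 CPM in the controls and at 40.8, 37.6 and 68.4 CPM in the induced libraries. MYCN-induced replicates 1 and 2 lay within or just below the control range and replicate 3 far above it. Over all 6 libraries its log2 fold change was 0.26 (SE 0.21, 95% interval -0.21 to 0.74, adjusted p = 0.554 from edgeR), and without that library -0.05 (adjusted p = 0.666). The log2 ratio of *MBNL1* to *MBNL2* was 0.28, 0.27 and 0.18 in the controls and 0.63, 0.78 and -0.37 in the induced libraries, a difference of 0.10 (two-sided exact permutation p = 1). Without MYCN-induced replicate 3 the difference was 0.46. The third muscleblind gene, *MBNL3*, was at 138, 127 and 123 CPM in the controls and 89.3, 85.0 and 46.4 CPM in the induced libraries, without overlap and on the other side of the controls from *MBNL1*. *MBNL3* had a log2 fold change of -0.81 (SE 0.22, adjusted p = 0.0965 from edgeR), and -0.56 without MYCN-induced replicate 3 (adjusted p = 0.00466). Without that library edgeR called 8.12% of all genes. Without control replicate 2 the adjusted p of *MBNL3* was 0.284 (edgeR). DESeq2 gave an adjusted p of 0.0125. The difference in response between the muscleblind genes was tested only for the ratio of *MBNL1* to *MBNL2*.

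*ILF2* (ENSG00000143621.17, chr1:153661788-153671028, minus strand, 2261 exon bases) encodes NF45, a partner of double-stranded RNA binding proteins. It lies 0.911 Mb from *ADAR*, and *DHX9* is a further 28.2 Mb away on the same arm of chromosome 1. The level was 360, 354 and 333 CPM in the controls and 389, 357 and 318 CPM in the induced libraries, which spread to both sides of the controls. The log2 fold change was 0.02 (SE 0.09, 95% interval -0.17 to 0.22, adjusted p = 0.921 from edgeR).

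*KHSRP* (ENSG00000088247.18, chr19:6413102-6424811, minus strand, 5162 exon bases) promotes the decay of AU-rich mRNAs and the maturation of some microRNAs. It varied most among the controls, at 137, 188 and 224 CPM, and was at 191, 263 and 197 CPM in the induced libraries. The groups overlapped, with the lowest value in control replicate 1 and the highest in MYCN-induced replicate 2. Induced cells differed by a log2 fold change of 0.24 (SE 0.19, 95% interval -0.19 to 0.68, adjusted p = 0.554 from edgeR). It was 0.07 without control replicate 1, 0.08 without MYCN-induced replicate 2 and 0.41 without control replicate 3. *KHSRP* is GC-rich (58.9% of its longest transcript, more than 87.0% of 9252 expressed protein-coding genes). As log2 CPM minus the mean of the gene over the libraries, the GC-richest 10% of those genes had a median of -0.35 in control replicate 1, where *KHSRP* was at -0.51, and of 0.18 in control replicate 3, where *KHSRP* was at 0.19. In MYCN-induced replicate 2 the median was 0.05 and *KHSRP* was at 0.42. The part of GC content in the spread of *KHSRP* was not tested. The microRNA gene *MIR3940* shares 22 exon bases with *KHSRP* on the same strand and received 456.5 to 1840 counts per library, against 12369.5 to 24470.5 for *KHSRP*.

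**Figure D4:**
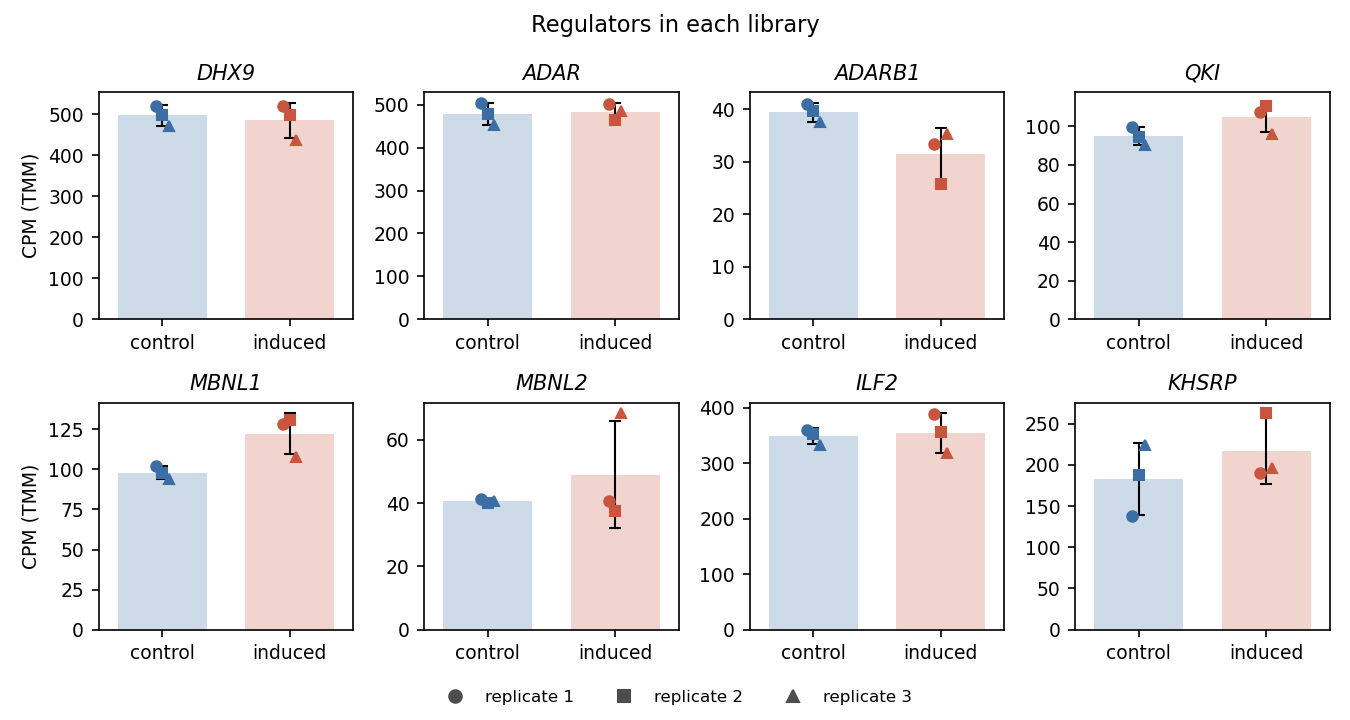
Normalised level (CPM) of each regulator in control and MYCN-induced cells. Bars are means, error bars SD (n = 3), points are libraries by replicate number. Groups are apart for *ADARB1* and *MBNL1*, and *MBNL2* is at 68.4 CPM in MYCN-induced replicate 3 against at most 41.4 CPM elsewhere.

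Control values fell from replicate 1 to replicate 3 in 6 of the 8 regulators, while the induced libraries had no order shared by most of them. In control replicate 1, 7 of the 8 had their highest control value, all but *KHSRP*, which had its lowest there. How many of all genes share this order was not counted. The coefficient of variation among controls was 1.78% for *MBNL2*, between 4.02% and 5.45% for 6 genes and 23.8% for *KHSRP*. Among induced libraries it ran from 4.01% for *ADAR* to 34.6% for *MBNL2*.

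Genes that act beside these regulators were read from 5 lists. Of 18 tested genes for other factors of back-splicing (of 21 listed, *ADARB2*, *ESRP1* and *RBFOX1* were too low), edgeR called 0 higher and 0 lower, 2 had an unadjusted p under 0.05 and DESeq2 called 1, *MBNL3*. Over all tested genes these shares were 3.40%, 18.7% and 7.23%. The median log2 fold change was 0.01. The largest differences without overlap were that of *MBNL3* and that of *RBM20*, a titin splicing factor needed for circRNAs of that gene in heart, at 9.58, 9.95 and 8.96 CPM in the controls and 11.0, 10.8 and 12.3 CPM in the induced libraries (log2 fold change 0.26, adjusted p = 0.216 from edgeR). The intron-binding factors *HNRNPL* and *SFPQ* had log2 fold changes of 0.11 and 0.08.

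Of 19 tested double-stranded RNA binding proteins (of 22 listed, *ADARB2*, *OAS1* and *OAS2* were too low), edgeR called 0 in either direction, 4 had an unadjusted p under 0.05 and DESeq2 called 2, *IFIH1* and *STRBP*. Over all tested genes these shares were 3.40%, 18.7% and 7.23%. The median was 0.06. *IFIH1* (MDA5), the sensor of long double-stranded RNA, was at 2.89, 2.29 and 2.63 CPM in the controls and 3.67, 3.69 and 3.82 CPM in the induced libraries, which did not overlap (log2 fold change 0.52, SE 0.12, adjusted p = 0.0722 from edgeR). The largest difference in the other direction without overlap was that of *OAS3*, an oligoadenylate synthetase, at -0.21 (adjusted p = 0.438). *EIF2AK2* (PKR), the kinase that circRNAs with short duplexes bind, had 169, 159 and 155 CPM in the controls and 165, 178 and 163 CPM in the induced libraries (log2 fold change 0.07, adjusted p = 0.652).

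Of 16 genes of circRNA decay, export and methylation, all tested, edgeR called 0, 3 had an unadjusted p under 0.05, and DESeq2 called 1, *RIDA*, whose product links m6A-marked RNA to cleavage. Over all tested genes these shares were 3.40%, 18.7% and 7.23%. The median was 0.09. *RIDA* was at 17.4, 18.3 and 17.3 CPM in the controls and 25.8, 29.7 and 19.0 CPM in the induced libraries, with replicate 3 just above the controls (log2 fold change 0.49, SE 0.15, adjusted p = 0.136 from edgeR, 0.00746 without MYCN-induced replicate 3). Without that library edgeR called 8.12% of all genes. Without control replicate 2 the adjusted p of *RIDA* was 0.362 (edgeR). *METTL3*, the m6A methyltransferase, was the largest in the other direction without overlap, at 89.7, 85.4 and 85.8 CPM in the controls and 79.1, 78.2 and 71.4 CPM in the induced libraries (-0.19, adjusted p = 0.186). *DDX39B*, an exporter of long circRNAs that was picked out after its values were seen, had 0.248, 27.2 and 12.4 CPM in the controls and 22.7, 15.5 and 18.3 CPM in the induced libraries, so its controls alone differed far more than the groups.

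Slowing of linear splicing or 3′ end formation is known to favour back-splicing. Of 16 genes of these steps, all tested, edgeR called 0, as did DESeq2, and 0 had an unadjusted p under 0.05. Over all tested genes these shares were 3.40% for edgeR, 7.23% for DESeq2 and 18.7% at that unadjusted p. The median was 0.09, with 14 above 0, where 14524 of all 29086 tested genes were above 0. Scaling by library size only or by upper quartile moved the median of all genes from 0.00 to -0.03. The largest differences without overlap were those of 2 subunits of the splicing factor 3 complexes, *SF3A3* at 0.15 (adjusted p = 0.287 from edgeR, 0.0381 without MYCN-induced replicate 3) and *SF3B1* at -0.11 (adjusted p = 0.490). Without that replicate edgeR called 8.12% of all genes. Without control replicate 2 the adjusted p of *SF3A3* was 0.613 (edgeR).

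The last list holds 19 host genes of circRNAs that the study assayed by PCR, partly picked on these samples, so that it is no independent evidence of a direction. edgeR called 0, 5 had an unadjusted p under 0.05 and DESeq2 called 1, *ASAP1*. Over all tested genes these shares were 3.40%, 18.7% and 7.23%. The groups did not overlap for 11 of the 19, against 26.3% of all tested genes. The median was 0.07. *ASAP1*, a GTPase-activating protein, was at 224, 212 and 199 CPM in the controls and 266, 263 and 255 CPM in the induced libraries (log2 fold change 0.30, SE 0.07, adjusted p = 0.0539 from edgeR). *NRIP1*, a nuclear receptor corepressor, was at 302, 283 and 283 CPM in the controls and 244, 245 and 209 CPM in the induced libraries (-0.31, SE 0.08, adjusted p = 0.0835). *ARID1A*, the chromatin remodelling subunit and host of a circRNA the study examined, was at 350, 374 and 366 CPM in the controls and 374, 348 and 349 CPM in the induced libraries (-0.02, adjusted p = 0.885).

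**Figure D5:**
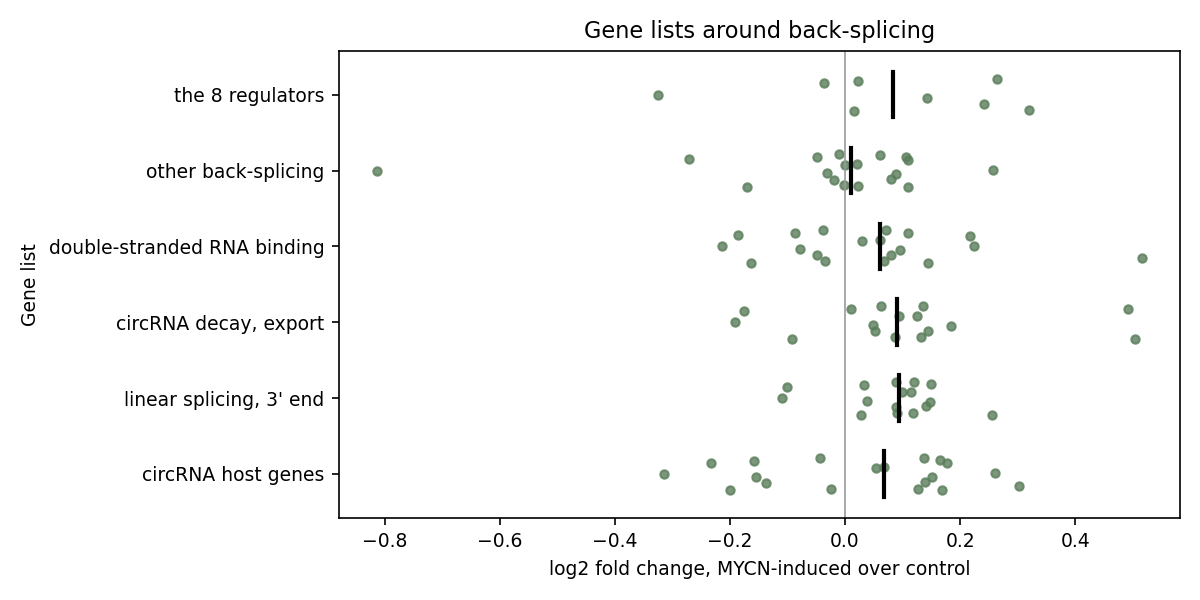
Log2 fold change (MYCN-induced over control) of each tested gene in the 8 regulators and 5 lists. Points are genes, spread vertically for sight, black bars are list medians, and the grey line is the median of all 29086 tested genes. Medians lie between 0.01 and 0.09, and the lowest point is *MBNL3* at -0.81.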

How the data were processed

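The authors deposited estimated counts per gene and library for 3 control and 3 MYCN-induced cultures, described in the study as independent experiments. The submitters' processing notes name STAR 2.7.1a, featureCounts 1.5.1 and GRCh38, and the methods GENCODE and a strand option. The file header names featureCounts 1.6.4 on unique alignments without a strand option, with pairs over several genes split in fractions, and 31.9% to 33.4% of values above 0 were not whole. The headers' strand setting and that of the methods differ, and values were used as deposited. The 92 spike-in rows were 0, so levels are relative. Names came from GENCODE 44, which matched 99.6% of identifiers. The deposited exon lengths gave TPM.

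Counts were rounded. Genes that reached 10 counts in 3 or more libraries entered the test of edgeR 4.0.16 (R 4.3.3, TMM, quasi-likelihood, Benjamini-Hochberg, threshold 0.05). DESeq2 1.42.0, which the methods name in another version, was an alternative. So were other scalings, filters and thresholds, a replicate block and leaving out each library. CPM are TMM-normalized. The depth leaves at least 2166.5 counts for each regulator, and the spread between libraries (biological coefficient of variation 0.153) sets the precision. Replicates differed beyond sampling noise (chi-square per gene at least 12.1). On simulated counts of 28636 genes for this comparison, edgeR called 138 of 191 genes changed 2-fold (72.3%) and 13 unchanged ones. This recovery does not carry over to the regulators, whose fold changes lay between 0.799 and 1.25. No simulated library was set apart as MYCN-induced replicate 3 is.

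The members and lists were chosen with earlier results of these data known. Besides the regulators and *MYCN*, named genes are those of a list past the threshold, the largest rise and fall of each list without overlap between groups (mean of at least 1 CPM) and the 5 most like *DHX9*. *CDH5*, *TH*, *CD3E*, *STRBP*, *DDX39B*, *HNRNPL*, *SFPQ*, *EIF2AK2* and *ARID1A* were added after their values were seen. Some genes that this rule names are not reported here. CircRNA counts were not analysed here.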

Additional observations from a re-analysis of the deposited data

How the results depend on the processing

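All alternatives were planned. Directions of *ADARB1*, *QKI*, *MBNL1* and *KHSRP* held in every one. *ADAR* changed sign with library size only (-0.0182) and upper-quartile normalization (-0.0163), as did *ILF2* (-0.00594 and -0.00619). These settings moved the median of all genes from 0.00 to -0.03. When each library was left out in turn, log2 fold changes ran from -0.0811 to 0.0416 for *DHX9* (above 0 without MYCN-induced replicate 3), -0.0260 to 0.0504 for *ADAR*, -0.41 to -0.20 for *ADARB1*, 0.10 to 0.21 for *QKI*, 0.27 to 0.41 for *MBNL1*, -0.0475 to 0.42 for *MBNL2* (below 0 without MYCN-induced replicate 3), -0.0398 to 0.10 for *ILF2* and 0.07 to 0.41 for *KHSRP*. The ratio differences ran from 0.25 to 0.44 for *ADAR* to *ADARB1* and -0.11 to 0.46 for *MBNL1* to *MBNL2*. *DDX39B* ran from -0.0783 to 1.57, the lowest without control replicate 1. The cause was not tested.

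DESeq2 called 1 regulator (*MBNL1*, 0.34), and leaving out a library 0 to 1. At a threshold of 0.1 the count was 0. Over all genes 990 calls became 2103 with DESeq2 (43.0% of them higher against 30.1%), 631 with at least 100 counts in every library, where fewer genes were tested, 181 and 1948 at thresholds of 0.01 and 0.1, and 90 to 2339 without 1 library (the lowest without control replicate 2, the highest without MYCN-induced replicate 3). Other back-splicing factors gave 1 call with DESeq2, no count filter, the replicate block and a threshold of 0.1, and 0 to 2 without 1 library. Decay and export gave 1 with DESeq2 and 0 to 1 without 1 library. Host genes gave 1 with DESeq2 and no count filter, 2 at 0.1 and 0 to 2 without 1 library. Double-stranded RNA binding proteins gave 2 with DESeq2, 1 at 0.1 and 0 to 1 without 1 library, and linear splicing genes 0 to 1 without 1 library.

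Same-numbered libraries did not deviate together in every pair (correlations 0.20, -0.02 and 0.07), so the numbers were not used to pair them. Their mean correlation was 0.08, against -0.04 for libraries of unlike number. Whether the numbers mark shared cultures cannot be told from these values. With the replicate block *DHX9* was at -0.04, 0 regulators and 840 genes passed, and *MBNL3* was at -0.87 (adjusted p = 0.0409 from edgeR).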
